A study of Mus musculus with 9 samples.

Results

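The line with 111 glutamine codons on both huntingtin alleles was compared with the line that carries 1 such allele, in the 6 libraries of the 9 in the series that were made from these lines. The lines are immortalized cells derived from the striatum of mouse embryos with the repeat knocked into the mouse gene. STHdhQ7/Q111 cells (HD-het) carry 7 glutamine codons on 1 allele and 111 on the other, STHdhQ111/Q111 cells (HD-homo) carry 111 on both, and STHdhQ7/Q7 cells, with 7 on both, are the control line of the series. The labels give the strain of all 3 lines as C57/BL6. Each line was represented by 3 libraries of poly(A)-selected RNA. No drug or other treatment is named for these libraries, and their values are the lines in culture. Each genotype is 1 line, so that the number of mutant alleles and the identity of the line cannot be told apart. Nothing in the labels says that the 3 libraries of a line came from separate cultures, so the p-values measure the spread between these libraries, which may be technical.

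Huntingtin is a large scaffold protein that takes part in vesicle transport and transcription, and an expanded glutamine tract near its amino terminus causes Huntington disease, in which the medium spiny neurons of the striatum are lost first. In cells, DNA in the cytosol is sensed by cyclic GMP-AMP synthase (cGAS), which signals through STING and the kinase TBK1 to the transcription factor IRF3. Interferon then acts through its receptors, Janus kinases and transcription factors to switch on interferon-stimulated genes, many of which bind or degrade viral RNA or present antigen. Hox genes lie in 4 clusters, mark position along the body axis in the embryo and are silent in the forebrain from which the striatum arises.

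Between 32399643 and 41197931 reads were counted on genes in each HD-homo library and between 32816147 and 35978570 in each HD-het library. Counts were scaled by the TMM method of edgeR, and levels are given as CPM, the count of a gene scaled to a common library total. A count of 3, the smallest taken to show a gene, equalled 0.0710 to 0.0920 CPM in these libraries, which covers counting error only. The 100 highest genes took 15.5 to 16.3% of the counts in HD-homo libraries and 19.5 to 20.03% in HD-het libraries. Variance between replicate libraries of a line was 5.97 to 37.7 times that of counting alone, so no 2 libraries were alike within sampling noise.

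Huntingtin mRNA was itself lower in HD-homo cells. Htt (chr5:34761721-34912534 on GRCm38.p6) was at 19.7, 21.7 and 19.2 CPM in the HD-homo libraries and at 61.8, 64.0 and 61.1 CPM in the HD-het libraries. The 3 control libraries held 104, 103 and 93.0 CPM. HD-homo cells were therefore 3.08-fold below HD-het cells, with no overlap (mean 20.2 ± 1.29 CPM against 62.3 ± 1.51 CPM, SD, n = 3 each; log2 fold change -1.62, SE 0.069, adjusted p = 3.8e-09 by edgeR's quasi-likelihood test). The counts give no length for the repeat, so the labelled alleles were not checked beyond this gene's level.

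The lines differed at most expressed genes. Of 36410 genes listed, 13508 passed the filter on low counts, and 9666 of these (71.6%) differed at an adjusted p under 0.05. HD-homo cells were higher at 4860 genes (36.0%) and lower at 4806 (35.6%), and the libraries of the lines did not overlap at 9832 genes (72.8%). At least 2-fold differences were fewer, with 1399 genes (10.4%) higher and 1886 (14.0%) lower. The median log2 fold change over all tested genes was 0.00, with quartiles at -0.50 and 0.43. With this background a share of called members is read against 71.6% in either direction, 36.0% for higher and 35.6% for lower, and sizes are given beside it. Counts of list members refer to tested members and to HD-homo against HD-het.

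**Figure D1:**
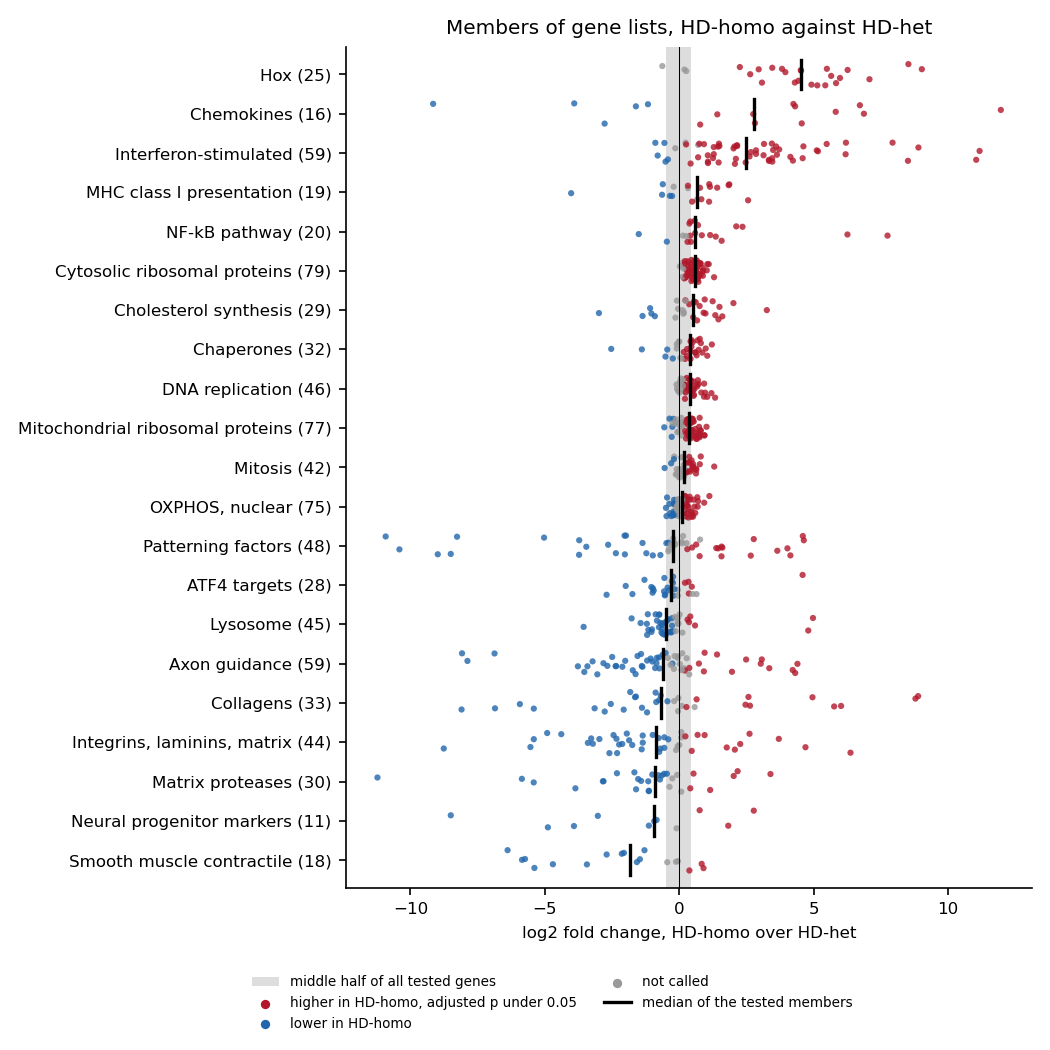
Log2 fold change (HD-homo over HD-het, horizontal axis) of every tested member of 21 gene lists, each a row with its number of tested members. Points are genes, coloured by the call, vertical bars are list medians, and the grey band runs from the lower to the upper quartile of all tested genes (-0.50 to 0.43). Hox genes, chemokines and interferon-stimulated genes have medians of 4.52, 2.79 and 2.47, and smooth muscle genes have the lowest, at -1.82.

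Interferon-stimulated genes were higher in HD-homo cells at most members. Of 63 listed, 59 were tested, and 51 (86.4%, against 36.0% of all genes) were higher, 5 were lower and 3 were not called. At least 2-fold increases numbered 46 of the 59 (10.4% of all genes), and the median log2 fold change was 2.47. At 51 members every HD-homo library lay above every HD-het library, at 4 every one lay below, and at 4 the lines overlapped. Over all tested genes, the libraries of the lines did not overlap at 72.8%. The members summed to 1222, 1130 and 1578 CPM in the HD-homo libraries, to 615, 609 and 642 CPM in HD-het, and to 604, 597 and 600 CPM in control libraries.

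Ifit1, which binds viral RNA that lacks the host cap, was at 15.7, 22.6 and 22.7 CPM in HD-homo and at 0.226, 0.213 and 0.389 CPM in HD-het (73.7-fold; log2 fold change 6.19, SE 0.28, adjusted p = 6.5e-09). Isg15, a ubiquitin-like protein that is conjugated to other proteins, was at 10.1, 8.88 and 13.5 CPM against 0.818, 1.07 and 1.05 CPM (11.1-fold; log2 fold change 3.46, SE 0.19, adjusted p = 3.6e-08). Both genes were low in HD-het cells, and the lines were far apart in every library. In the oligoadenylate synthetase family, Oasl1, Oas1a and Oas1g were close to absent in HD-het cells. Oas3 of the same family had a smaller log2 fold change, of 2.15. Oasl1 had no count in any HD-het library and 7.02, 9.09 and 7.25 CPM in HD-homo, at least 87.9-fold higher. Oas1a was at 6.99, 6.70 and 19.9 CPM against 0, 0.0305 and 0.0300 CPM, at least 126-fold higher, with HD-homo replicate 3 well above the other two and a bound of 77.2-fold without it. Oas1g, at 5.36, 4.76 and 15.5 CPM against 0 in all HD-het libraries, had the same uneven HD-homo values, and its log2 fold change of 11.18 came to 10.42 without replicate 3. Oas1a and Oas1g, and likewise Ifit3 and Ifit3b, are near-identical neighbours whose reads the counting may have split. Usp18, the protease that removes ISG15, was at 9.47, 6.51 and 24.1 CPM against 0.197, 0.213 and 0.120 CPM.

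Irf7, which amplifies the response, was at 13.6, 7.67 and 18.2 CPM against 0.987, 1.22 and 0.779 CPM (13.2-fold). Irf7 separated the lines in every library. The viral RNA sensors Ddx58 (RIG-I), at 58.7, 57.0 and 71.6 CPM against 15.3, 17.9 and 11.9 CPM, and Ifih1 (MDA5), at 9.32, 11.1 and 12.9 CPM against 0.790, 1.13 and 1.05 CPM, were 4.17-fold and 11.3-fold higher. Trim25, the ubiquitin ligase that acts on RIG-I, showed the widest ratio of the list that is not a bound, at 36.0, 31.3 and 33.7 CPM against 0.0282, 0.152 and 0.0899 CPM (373-fold). Its control level, 5.54, 5.32 and 5.38 CPM, lay between the HD lines. Ifitm3, which blocks viral entry, was at 141, 105 and 181 CPM against 22.2, 23 and 24.5 CPM (6.13-fold).

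Members that did not follow were Pml, Irgm1, Tor3a, Nmi and Ifit2, which were lower, and Ifi27, Herc6 and Slfn5, which were not called. Pml, the organizer of nuclear bodies, was at 30.9, 31.4 and 34.8 CPM in HD-homo and 61.4, 57.1 and 61.4 CPM in HD-het (log2 fold change -0.89, SE 0.066, adjusted p = 3.3e-07). Irgm1, a GTPase of intracellular defence, was at 21.2, 21.4 and 25.2 CPM against 41.0, 38.7 and 38.6 CPM (log2 fold change -0.80, SE 0.11, adjusted p = 5.1e-05). Ifit2 was lower by the test (log2 fold change -0.51, adjusted p = 0.026) although its libraries overlapped, at 15.7, 28.7 and 16.9 CPM against 27.0, 31.3 and 29.7 CPM.

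Within the HD-homo line, replicate 3 stood highest at 40 of the 51 members called higher and replicate 2 lowest at 33. The member median was 7.76, 7.67 and 13.5 CPM in the 3 HD-homo libraries and 1.04, 1.13 and 1.05 CPM in HD-het. Without HD-homo replicate 3, 51 members were still called higher, 41 of them at least 2-fold, with a median of 2.12. Many members are low in HD-het cells, and at 29 members with at least 10 counts in every library 21 were higher and 5 lower, with a median of 1.07.

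**Figure D2:**
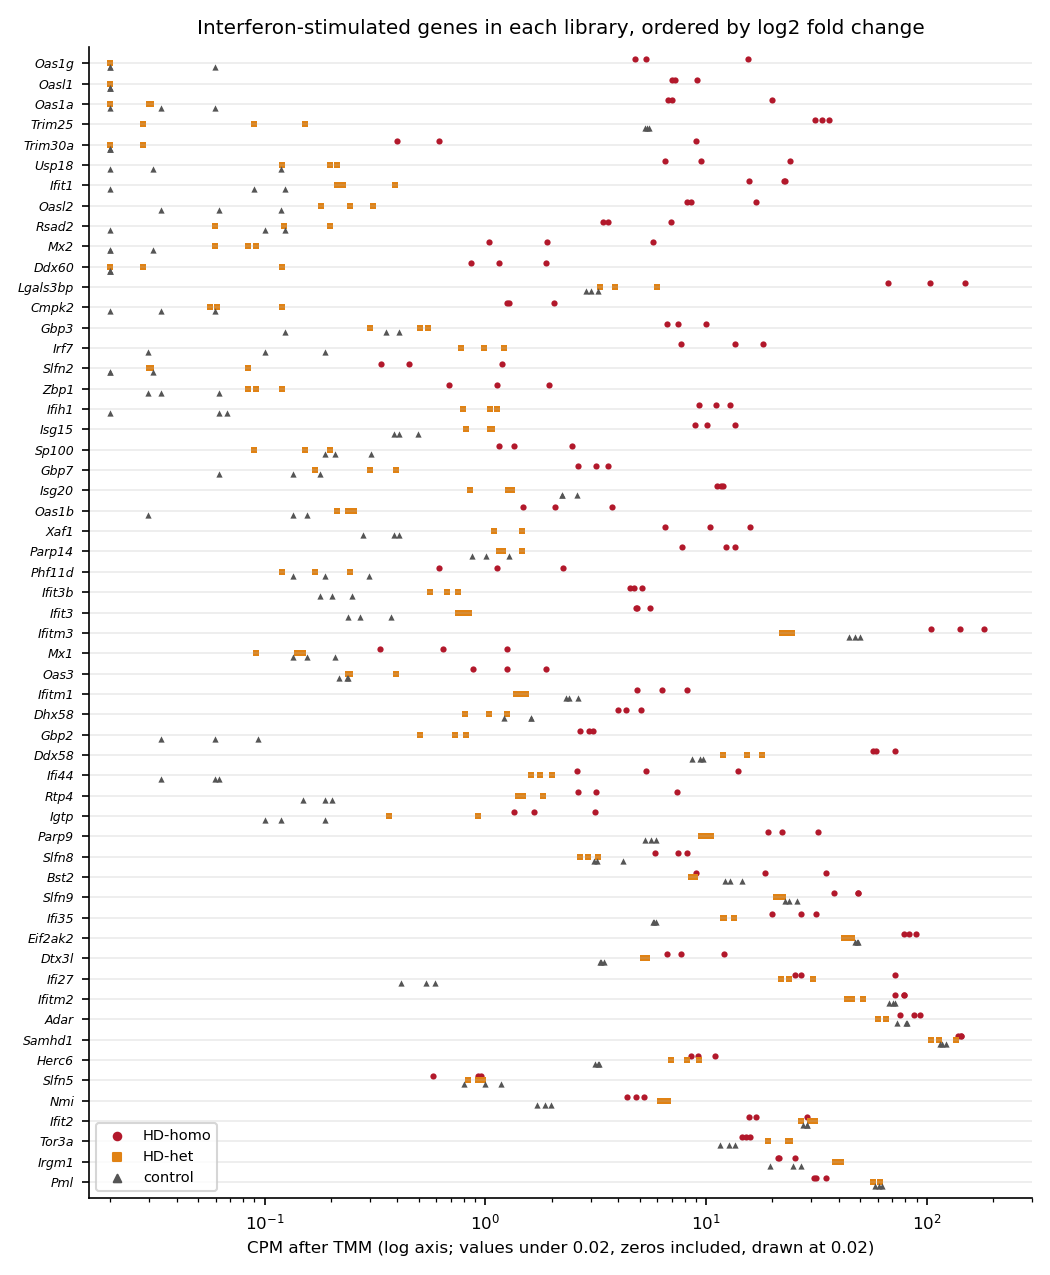
Level of tested interferon-stimulated genes in every library of the 3 lines (CPM, log axis), one row per gene in the order of the log2 fold change. HD-homo libraries lie to the right of all HD-het libraries at most genes shown, and genes at the floor in HD-het cells, such as Oasl1, sit at the left edge.

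Promoters of 5 members that hold more than 1 match are shown, chosen after their values were seen, because interferon factors read a known element in such promoters, the interferon-stimulated response element, whose core was searched as GAAANNGAA on either strand (TTCNNTTTC on the other). Each line gives the 120 bases before the annotated start site, 5′ to 3′ on the gene's strand, from RefSeq on GRCm38.p6, with the bases of every match in capitals. Ifit1 is chr19:34640769-34640888 on the plus strand, Isg15 is chr4:156200819-156200938 on the minus strand, Oas1a is chr5:120907526-120907645 on the minus strand and Gbp3 is chr3:142559924-142560043 on the plus strand. Irgm1, at chr11:48871421-48871540 on the minus strand, is shown as a member that was lower in HD-homo cells.
Ifit1: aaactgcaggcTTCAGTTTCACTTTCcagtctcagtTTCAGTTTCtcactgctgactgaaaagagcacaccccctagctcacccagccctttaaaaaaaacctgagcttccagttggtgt
Isg15: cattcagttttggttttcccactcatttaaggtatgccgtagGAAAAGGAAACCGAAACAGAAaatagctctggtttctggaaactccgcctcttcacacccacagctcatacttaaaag
Oas1a: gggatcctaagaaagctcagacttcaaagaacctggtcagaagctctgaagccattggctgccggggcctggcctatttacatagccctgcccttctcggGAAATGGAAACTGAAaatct
Gbp3: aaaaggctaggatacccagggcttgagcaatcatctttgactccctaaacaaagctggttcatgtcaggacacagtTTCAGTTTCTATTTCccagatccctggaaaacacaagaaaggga
Irgm1: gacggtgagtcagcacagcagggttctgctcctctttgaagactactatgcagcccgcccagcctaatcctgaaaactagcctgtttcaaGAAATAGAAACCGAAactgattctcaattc

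Neighbouring matches overlap in these promoters, so that 3 matches in Isg15 form 1 run, with starts 78, 72 and 66 bases before the start site. Ifit1 holds 3 matches on the opposite strand, Oas1a 2 within 20 bases of the start site, and Gbp3 2, at 44 and 38 bases. Irgm1, a member that was lower, holds 2, at 30 and 24 bases. Over windows from 250 bases before to 50 after the start site, 30 of 57 promoters of the list (52.6%) held the core, against 929 of 13468 promoters of all tested genes (6.90%). By gene these are 28 of 47 (59.6%) and 882 of 10538 (8.37%). Promoters were found for 79.7% of the list and 78.0% of all tested genes, under the 80% set for such a comparison, so these shares describe only the matched genes and their comparison is void for the whole list. A match is a description of letters and not a binding site.

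Of the genes that sense cytosolic DNA, the sensor itself had the largest log2 fold change of those followed here. Cgas was at 44.5, 47.1 and 49.3 CPM in HD-homo, 2.68, 2.65 and 2.52 CPM in HD-het and 0.0311, 0.0595 and 0.101 CPM in control libraries (17.9-fold between the HD lines; log2 fold change 4.16, SE 0.096, adjusted p = 3.1e-11). Its older symbol Mb21d1 is listed as a gene of its own, at 5.70, 5.14 and 5.61 CPM against 0.423, 0.244 and 0.329 CPM, so the reads of the sensor may be divided over 2 entries, which was not tested. Tmem173, which encodes STING, was at 18.3, 19.2 and 17.9 CPM against 7.39, 6.95 and 7.31 CPM (log2 fold change 1.35, adjusted p = 5.3e-08). Tbk1 was higher by a log2 fold change of 0.37 (adjusted p = 0.0012). Irf3 went the other way, at 16.0, 16.2 and 15.4 CPM against 26.3, 25 and 24.5 CPM (log2 fold change -0.67, adjusted p = 1.3e-05). Trex1, the exonuclease that clears cytosolic DNA, was not called (log2 fold change 0.23, adjusted p = 0.15).

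Transcripts of the interferons themselves were near the limit of detection. Of 21 interferon genes listed, 18 had no count in any of the 6 HD libraries, the highest count was 1, and the sums were 1 count in HD-homo and 3 in HD-het. Ifnb1 had 0 counts. Among 19 receptors, kinases and transcription factors of the pathway 10 were higher and 3 lower. Stat6, which carries interleukin-4 signals, was at 111, 108 and 93.9 CPM against 0.508, 0.488 and 0.449 CPM (217-fold; log2 fold change 7.75, adjusted p = 5.2e-12), near all or none between the lines. Irf5 was at 14.9, 18.3 and 18.5 CPM against 3.67, 3.02 and 3.53 CPM (5.06-fold). Ifnar1, a chain of the type I interferon receptor, was lower (log2 fold change -0.43, adjusted p = 3.7e-04), and Ifnar2 was not called (log2 fold change 0.16). Of 12 genes that limit sensing of self nucleic acid, 5 were higher and 3 lower, among them Rnaseh2a (log2 fold change 0.66) and Lmnb1, the nuclear lamina gene (-0.87).

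Antigen presentation followed in part. Of 19 genes of the MHC class I pathway 11 were higher and 5 lower, with a median log2 fold change of 0.66. Tap1, a peptide transporter subunit, was at 7.79, 8.78 and 23.4 CPM against 3.52, 3.69 and 3.74 CPM (log2 fold change 1.86, adjusted p = 0.0011). HD-homo replicate 3 set its size, and the value was 1.18 without that library. Nlrc5, the transactivator of class I genes, had a log2 fold change of 1.84 (adjusted p = 2.2e-04). H2-D1 was at 55.6, 49.3 and 117 CPM against 35.7, 30.7 and 36.3 CPM (log2 fold change 1.11, adjusted p = 0.0028). H2-K1 and B2m were not called (0.66, adjusted p = 0.076, and 0.32, adjusted p = 0.16), and their HD-homo values were again high in replicate 3 alone. H2-T23, a nonclassical class I gene, was at 1.38, 1.33 and 1.40 CPM against 23.4, 21.8 and 21.5 CPM, 16.3-fold lower. Class I genes share near-identical sequence, so reads between them are uncertain.

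All 16 tested chemokines of 30 listed differed, 11 higher and 5 lower, with a median log2 fold change of 2.79, and 10 were at least 2-fold higher. Their summed level was not higher, at 535 to 922 CPM in HD-homo libraries and 733 to 992 CPM in HD-het, with overlap. Ccl5, which draws T cells and monocytes, was at 50, 56.5 and 55.7 CPM against 0, 0.0305 and 0 CPM, at least 610-fold higher (log2 fold change 11.97, adjusted p = 2.3e-11). The single HD-het count lay in replicate 2, without which the fitted value was 13.85. Cxcl10, an interferon-induced chemokine, was at 55.6, 96.4 and 52.6 CPM against 0.761, 0.549 and 0.419 CPM (118-fold; log2 fold change 6.87, SE 0.30, adjusted p = 5.3e-09). Ccl5 and Cxcl10 were also under 0.4 CPM in control libraries. The monocyte chemokine Ccl2 differed in that respect, at 138, 321 and 77.0 CPM in HD-homo, 9.62, 11.3 and 7.31 CPM in HD-het and 76.4, 74.5 and 92.4 CPM in control libraries. Cxcl1, which draws neutrophils, was at 75.4, 138 and 76.7 CPM against 1.89, 2.07 and 1.17 CPM (56.6-fold). HD-homo replicate 2 was the highest library for Ccl2, Ccl7, Cxcl1 and Cxcl10, whereas replicate 3 was highest at most interferon-stimulated genes called higher. This did not extend to every chemokine. Ppbp, a platelet chemokine precursor outside the list, was highest in replicate 3, at 234, 236 and 513 CPM in HD-homo.

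The 5 lower chemokines were Cxcl14, Ccl17, Cx3cl1, Ccl20 and Cxcl12. Cx3cl1, the membrane-bound ligand that neurons present to microglia, was at 112, 100 and 78.3 CPM against 784, 753 and 453 CPM (6.85-fold lower; log2 fold change -2.78, adjusted p = 3.1e-07). Cxcl14 was at 0.0613, 0.0237 and 0.0298 CPM against 22.5, 20.4 and 26.7 CPM, at least 276-fold lower. Among genes with at least 10 counts in every library, 8 chemokines remained for testing, 5 higher and 3 lower.

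Genes of the NF-kB pathway were higher at 16 of 20 members and lower at 2, with a median log2 fold change of 0.59. The subunits Nfkb1, Nfkb2, Rel, Rela and Relb were all called higher (0.59, 1.36, 1.15, 0.58 and 0.41). Traf1, an adaptor of TNF receptors, was at 35.4, 28.5 and 36.5 CPM against 0.451, 0.610 and 0.240 CPM (77.2-fold). Bcl3, a nuclear partner of NF-kB, was at 7.79, 8.69 and 4.89 CPM against at most 0.0564 CPM, at least 80.4-fold higher, with a fitted log2 fold change of 7.75 that came to 8.57 without HD-het replicate 1. The inhibitor Nfkbia also rose (1.58), and Vcam1, an adhesion molecule, was lower (-1.51). Of 14 cytokines 9 were higher, among them Lif at 138, 277 and 150 CPM against 103, 88.2 and 53.1 CPM (log2 fold change 1.21, adjusted p = 0.0018), and Il6 alone was lower (-1.08, adjusted p = 0.016). Complement gave 7 higher and 2 lower of 12, yet its sum was 106 to 232 CPM in HD-homo and 232 to 262 CPM in HD-het. Most of the HD-het sum was Masp1, a lower member, at 81.4, 66.1 and 183 CPM against 236, 208 and 221 CPM (log2 fold change -1.01). C3, the component on which all complement routes converge, was at 12.2, 14.0 and 16.6 CPM against 0.141, 0.0915 and 0.150 CPM (112-fold), whereas Clu, a secreted chaperone that inhibits complement, was 10.3-fold lower.

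**Figure D3:**
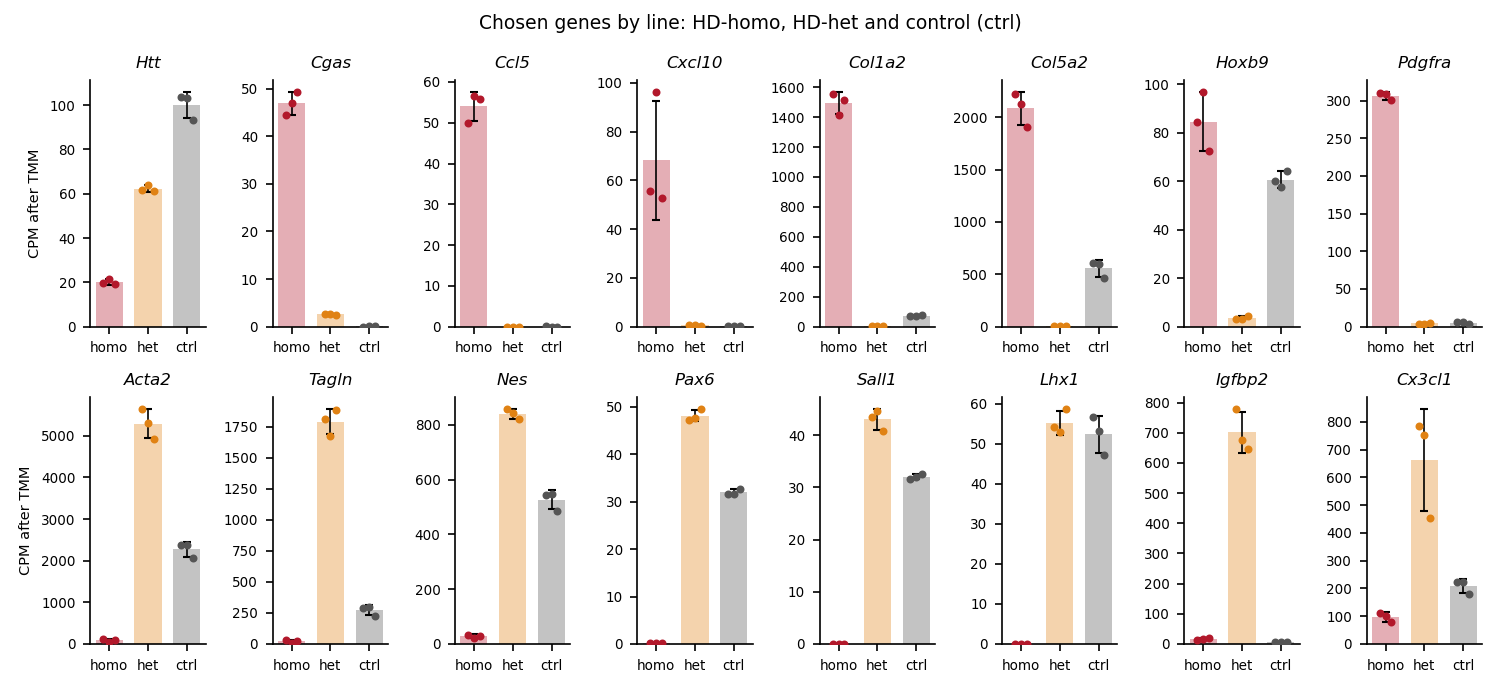
Level of 16 genes in HD-homo, HD-het and control libraries (CPM, linear axes that start at 0 and differ between panels). Bars are means of 3 libraries, error bars are the SD and points are the libraries. Cgas, Ccl5, Cxcl10, Col1a2, Col5a2, Hoxb9 and Pdgfra are high in HD-homo and low in HD-het, and Htt, Acta2, Tagln, Nes, Pax6, Sall1, Lhx1, Igfbp2 and Cx3cl1 are higher in HD-het than in HD-homo.

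Hox genes had the highest median of any list. Of 39 listed, 25 were tested, and 22 were higher in HD-homo cells, all by at least 2-fold, with none lower and a median log2 fold change of 4.52. The members of all 4 clusters took part. The HoxA cluster (chr6:52155367-52260880, GRCm38.p6) was higher at 9 of 9 genes with a median of 5.83, HoxB (chr11:96194316-96368254) at 8 of 9 with 4.30, HoxC (chr15:102921131-103036856) at 4 of 5 with 5.14 and HoxD (chr2:74668225-74765142) at 1 of 2. Hoxb genes summed to 151 to 195 CPM in HD-homo libraries and 7.56 to 12 CPM in HD-het, and Hoxa genes to 15 to 18.5 CPM against 0.197 to 0.779 CPM.

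Hoxb9, expressed in the thoracic spinal cord of the embryo, was at 84.2, 96.9 and 72.6 CPM in HD-homo, 3.33, 3.32 and 4.31 CPM in HD-het and 59.9, 57.5 and 64.3 CPM in control libraries (23.1-fold between the HD lines; log2 fold change 4.53, SE 0.13, adjusted p = 2.3e-10). Hoxb2, a hindbrain gene, was at 16.0, 19.6 and 12.9 CPM, 0.423, 0.640 and 0.539 CPM, and 7.78, 6.69 and 7.71 CPM in the same order. HD-het cells were thus the lowest line at both genes. Hoxa3 kept this order with lower control values, at 4.14, 5.68 and 5.10 CPM in HD-homo, 1 count in 1 HD-het library and 0.436, 0.357 and 0.507 CPM in control libraries. Hoxb13, Hoxc8 and Hoxd8 were not called (log2 fold changes 0.26, 0.19 and -0.63), and all were under 1 CPM in both HD lines. Since most Hox genes were near the floor in HD-het cells, 7 kept at least 10 counts in every library, and all 7 were higher.

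**Figure D4:**
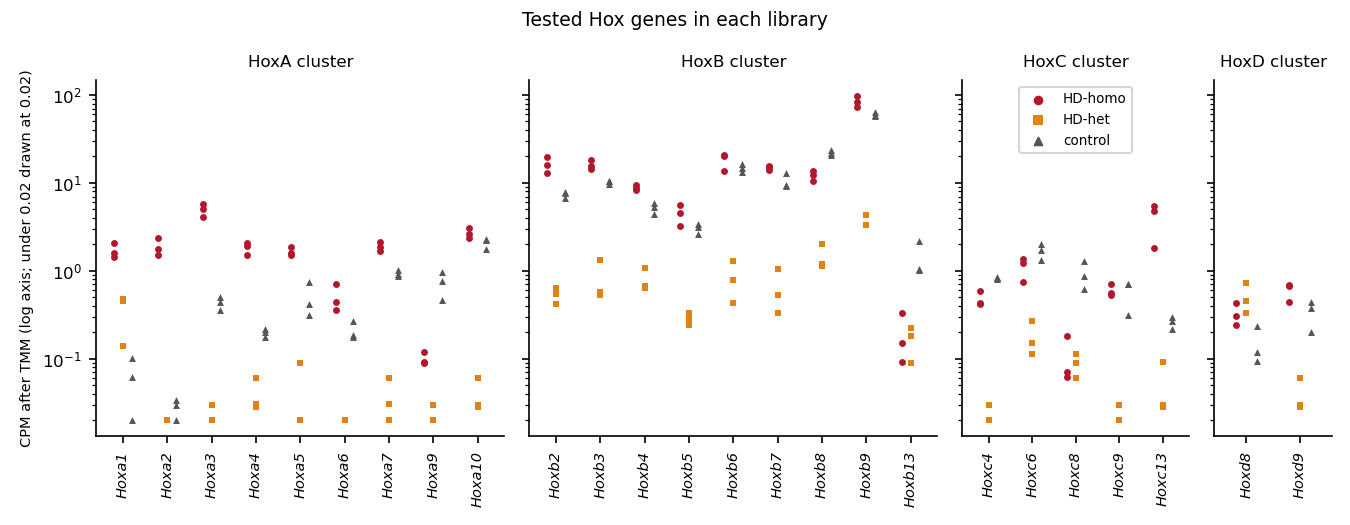
Level of the 25 tested Hox genes in each library (CPM, log axis, values under 0.02 drawn at 0.02), by cluster. HD-homo libraries lie above HD-het libraries at every called gene of the 4 clusters, and control libraries lie near HD-homo at most HoxB genes.

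Other factors that pattern the embryo moved in both directions. Of 48 tested, 16 were higher (33.3%) and 20 lower (41.7%), near the 36.0% and 35.6% of all genes. Zic1, a zinc finger factor of the dorsal neural tube, was at 25.8, 25.8 and 28.2 CPM against 1.38, 1.92 and 1.23 CPM (17.6-fold), and Gata6, an endoderm and mesoderm factor, was 24.5-fold higher. Pax9, a pharyngeal pouch and sclerotome gene, was 16.3-fold higher. Sall1, a zinc finger factor of the kidney and limb, was at 0, 0.0237 and 0.0298 CPM against 43.5, 44.7 and 40.8 CPM, at least 511-fold lower (log2 fold change -10.92, adjusted p = 4.0e-12), and was at 31.6, 32.0 and 32.6 CPM in control libraries. Lhx1, a factor of the early head organizer, was at least 657-fold lower, with a fitted log2 fold change of -10.41 that came to -11.51 without HD-homo replicate 2. Pax6, which patterns the dorsal telencephalon and the eye, was at 0.153, 0.0947 and 0.149 CPM against 47.2, 47.7 and 49.6 CPM (364-fold lower; log2 fold change -8.50, adjusted p = 2.0e-12). Lhx2 was at 3.40, 3.15 and 3.79 CPM against 114, 112 and 111 CPM, 32.6-fold lower. Meis2, a factor of the striatal primordium, was 4.10-fold lower. All of these genes separated the lines without overlap, as did 37 of the 48 members and 72.8% of all tested genes.

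Markers of neural progenitors were mostly lower, 7 of 11 lower and 3 higher with a median log2 fold change of -0.93. Nes, the intermediate filament nestin, was at 34.3, 21.4 and 29.6 CPM in HD-homo, 857, 841 and 821 CPM in HD-het and 544, 548 and 486 CPM in control libraries (29.5-fold lower between the HD lines; log2 fold change -4.89, SE 0.15, adjusted p = 2.9e-10). Sox2, a stem cell factor, was at 5.79, 5.66 and 4.98 CPM against 85.2, 84.4 and 79.1 CPM, 15.1-fold lower. Notch1, Hes1 and Fabp7 were lower too (-1.13, -0.93 and -3.03). Dlx2, a factor of the ganglionic eminence from which the striatum forms, went up from 4.20, 3.96 and 5.81 CPM in HD-het to 21.6, 35.1 and 38.7 CPM in HD-homo (6.83-fold), and Sox9 was 3.54-fold higher. Vim, vimentin, was not called (log2 fold change -0.10, adjusted p = 0.25).

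Of the 27 markers of striatal neurons listed, 7 did not exceed 3 counts in any HD library, and 15 were tested. Drd1 and Pdyn had no count in any HD library, Drd2 had at most 1, and Ppp1r1b (DARPP-32) had at most 17 in HD-homo and 1 in HD-het. Of the 15 tested, 5 were higher (33.3%) and 6 lower (40%), near the 36.0% and 35.6% of all genes. Foxp1 was at 165, 159 and 179 CPM against 113, 113 and 116 CPM (log2 fold change 0.56, adjusted p = 9.0e-06), and Penk was higher but under 4 CPM. Kcnab1, a potassium channel subunit, was at 1.13, 0.521 and 1.49 CPM against 77.6, 77.6 and 78.2 CPM (74.2-fold lower), Pde1b was 8.44-fold lower and Cnr1, the cannabinoid receptor, at least 49.6-fold lower. Of 24 pan-neuronal markers 10 were tested, of which 2 were higher, 3 lower and 5 not called, with a median log2 fold change of 0.02. Ncam1 was 4.36-fold lower, Tubb3 was lower by a log2 fold change of -0.43 and Map2 was not called (-0.02). Slc17a6 went the other way, with up to 121 counts in an HD-homo library and at most 1 in HD-het. Rbfox3 and Snap25 did not exceed 1 count in any HD library. Of the 24 pan-neuronal markers, 8 did not exceed 3 counts in any HD library.

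Markers of other cell types were read over whole lists. Of 12 microglia and leukocyte markers 4 had no count in either HD line (Aif1, C1qa, Adgre1 and Cd3e) and 4 were tested. The tested ones summed to 15.5 to 17.0 CPM in HD-homo and 45.4 to 57.0 CPM in HD-het, most of it Tmem119, which osteoblasts and fibroblasts also express. Endothelial markers, 3 tested of 8 with Cldn5 and Emcn at 0, summed to 10.7 to 16.3 CPM against 175 to 192 CPM, nearly all of it Flt1. Astrocyte markers (4 tested of 8) summed to 402 to 462 CPM against 214 to 233 CPM, mostly the gap junction gene Gja1, and Gfap and Aqp4 did not exceed 6 counts. Oligodendrocyte lineage markers (5 of 8) summed to 457 to 490 CPM against 165 to 203 CPM, mostly Pdgfra and Cspg4, with Mog at 0. Epithelial markers (4 of 6) summed to 5.28 to 6.99 CPM against 9.67 to 14.0 CPM, most of it Krt19, which was lower (log2 fold change -1.42), while Krt18 and Cdh1 were higher and Krt8 was not called. Mesenchymal markers (8 of 11) summed to 7310 to 7819 CPM against 8346 to 9590 CPM, most of it Col1a1, although 5 of the 8 were higher and 3 lower, with a median log2 fold change of 0.55. In a line, fewer cells of a kind and less RNA per cell cannot be told apart, and the part of these markers in the results was not tested.

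Collagen genes separated the lines in both directions. Of 33 tested, 10 were higher (30.3%, against 36.0% of all genes) and 18 lower (54.5%, against 35.6%). The median log2 fold change was -0.69. The fibril-forming chains Col1a2 and Col5a2 were the extremes upward. Col1a2 was at 1556, 1411 and 1516 CPM in HD-homo, 3.21, 3.54 and 2.70 CPM in HD-het and 71.9, 68.1 and 80.2 CPM in control libraries (474-fold between the HD lines; log2 fold change 8.89, SE 0.12, adjusted p = 1.8e-12). Col5a2 was at 2220, 2127 and 1912 CPM against 3.89, 5.55 and 4.73 CPM (442-fold). Col1a1, whose product pairs with that of Col1a2 in type I collagen, was lower, at 4136, 4075 and 4493 CPM against 7791, 7172 and 6329 CPM (log2 fold change -0.75, adjusted p = 1.3e-04). Col6a1 and Col6a2, adjacent chains of type VI collagen, were 6.21-fold and 5.52-fold higher. All 6 chains of the basement membrane collagen type IV, grouped after their values were seen, were called lower, with log2 fold changes from -6.86 for Col4a4 to -1.20 for Col4a5 and with Col4a1 at 413, 314 and 413 CPM against 1595, 1470 and 1710 CPM. Col12a1, at 644, 628 and 747 CPM against 4758, 4736 and 4306 CPM, was 6.83-fold lower, and Col14a1 at least 162-fold lower.

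Integrins, laminins and other adhesive matrix genes were lower at 28 of 44 members and higher at 11, with a median log2 fold change of -0.88. Thbs1, the secreted thrombospondin that activates TGF-beta, was at 1748, 2456 and 2290 CPM against 13721, 13073 and 12556 CPM, which is 6.06-fold lower. Fibronectin (Fn1) was at 6097, 4888 and 5020 CPM against 9367, 8794 and 9110 CPM (log2 fold change -0.77, adjusted p = 1.2e-04), Tnc was 4.71-fold lower and osteopontin (Spp1) 20.9-fold lower. Itga7, a laminin receptor chain of muscle, was at 1.96, 2.84 and 2.59 CPM against 122, 114 and 111 CPM (46.9-fold lower). Upward, Itgb7 was 83.3-fold higher (log2 fold change 6.37, and 7.00 without HD-het replicate 3) and Itga2, a collagen receptor chain, was at 19.8, 6.80 and 24.3 CPM against 0.790, 0.427 and 0.719 CPM. Matrix proteases were lower at 20 of 30 and higher at 6, among them Adamts9 with no count in HD-homo (at least 105-fold lower), Mmp10 (58.4-fold lower) and, in the other direction, Adamts1 (10.5-fold higher) and the gelatinase Mmp2 (4.51-fold higher).

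Smooth muscle contractile genes had the lowest median of the lists in the plot of list members, -1.82. Of 18, 12 were lower, all by at least 2-fold (14.0% of all genes), and 3 were higher. Acta2, smooth muscle actin, was at 116, 57.7 and 102 CPM in HD-homo, 5639, 5300 and 4931 CPM in HD-het and 2384, 2374 and 2056 CPM in control libraries (57.6-fold lower between the HD lines; log2 fold change -5.85, SE 0.24, adjusted p = 2.8e-09). Tagln, an actin-binding protein, was at 31.8, 10.3 and 22.6 CPM against 1810, 1678 and 1880 CPM (83.0-fold lower), and Myl9, Cnn1 and Mylk had log2 fold changes of -4.70, -5.39 and -3.44. The regulator Myocd was lower (-2.70), its partner Srf was not called (-0.05, adjusted p = 0.52), and Mkl1, the myocardin-related factor on chromosome 15, was 1.87-fold higher. Myh11 was not called either (-0.12, adjusted p = 0.16). The actin crosslinker Flna, among the 5 largest decreases in CPM, was at 2473, 2122 and 2262 CPM against 6945, 6549 and 6253 CPM.

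Signalling lists were split. In the TGF-beta and BMP pathway 22 of 42 genes were lower (52.4%, against 35.6% of all genes) and 9 higher (21.4%, against 36.0%). Bmp7 was at 6.74, 2.77 and 10.8 CPM against 1 count in HD-het replicate 3 and none in the others, at least 76.3-fold higher (fitted log2 fold change 8.96, and 10.83 without that library). The antagonist Fst and the receptor Tgfbr2 were 8.41-fold and 3.42-fold higher, while Bambi, a decoy receptor, and Inhbb, an activin subunit, were 49.3-fold and 38.5-fold lower. Wnt genes gave 16 higher (35.6%) and 19 lower (42.2%) of 45, near the 36.0% and 35.6% of all genes. The neighbouring ligand genes Wnt10a and Wnt6 led the increases, Wnt10a at 122.7, 92.0 and 92.8 CPM against 0.169, 0.122 and 0.120 CPM (748-fold) and Wnt6 at least 66.2-fold higher. Wnt4 was 18.9-fold lower, and the inhibitor Sfrp4 at least 81.4-fold lower (fitted log2 fold change -7.78, and -10.82 without HD-homo replicate 2).

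Axon guidance genes were lower at 32 of 59 (54.2%, against 35.6% of all genes) and higher at 14 (23.7%, against 36.0%). The netrin receptor Unc5c was at 27.4, 27.9 and 42.3 CPM against 1.24, 1.95 and 1.44 CPM (21.1-fold), and Sema3e was 19.9-fold higher. Sema5b was 124-fold lower, a ratio that rests on 3, 4 and 2 counts in the HD-homo libraries. In the IGF axis 6 of 17 were higher (35.3%, against 36.0% of all genes) and 8 lower (47.1%, against 35.6%). Igfbp2, which binds IGFs outside the cell, was at 13.1, 17.2 and 19.4 CPM in HD-homo, 779, 677 and 648 CPM in HD-het and 5.66, 6.87 and 4.87 CPM in control libraries, so that HD-het cells stood apart. Igfbp5 was 306-fold lower, with 57.3 CPM in HD-het replicate 3 against 22.3 and 20.6 CPM in the other two; its log2 fold change of -8.31 came to -7.67 without that library and to -8.90 without HD-homo replicate 1. Of 20 receptor tyrosine kinases 7 were higher (35%, against 36.0% of all genes) and 9 lower (45%, against 35.6%). Pdgfra was at 311, 308 and 301 CPM against 3.89, 3.96 and 5.27 CPM (70.1-fold) and Ddr2, a collagen receptor, at 242, 265 and 251 CPM against 3.33, 3.48 and 3.47 CPM (73.8-fold), both with a narrow spread between libraries. Flt1, a VEGF receptor, was 14.8-fold lower.

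DNA replication genes were mostly higher, by small amounts. Of 46, 33 (71.7%) were higher and 0 lower, with a median log2 fold change of 0.38, and 3 were at least 2-fold higher. Gmnn, which restricts licensing, was 2.29-fold higher, and the helicase subunit Mcm5 was at 315, 319 and 379 CPM against 169, 163 and 186 CPM (1.95-fold). The count of lower members was 2 without HD-homo replicate 3. Of 42 mitosis genes 20 were higher and 3 lower. Kif11, the spindle kinesin, was at 192, 235 and 186 CPM against 112, 119 and 120 CPM, Cdk1 was 1.70-fold higher, and the proliferation marker Mki67 was not called (log2 fold change 0.09, adjusted p = 0.47).

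Among 19 cyclin-dependent kinase, inhibitor and Rb genes 7 were higher (36.8%, against 36.0% of all genes) and 9 lower (47.4%, against 35.6%). Ccnd2, cyclin D2, was at 41.0, 36.8 and 41.2 CPM against 274, 277 and 244 CPM (6.67-fold lower), and its partner kinase Cdk6 was 2.84-fold higher. Of 24 p53 targets 11 were lower (45.8%) and 7 higher (29.2%). Cdkn1a (p21) was at -0.62, Bbc3 at -1.63 and Mdm2 at 0.37 on the log2 scale. Mismatch repair, which acts on the expanded repeat, gave 7 higher and 3 lower of 11. Msh3 was at 25.4, 30.8 and 25.8 CPM against 15.4, 16.0 and 16.4 CPM (log2 fold change 0.78, adjusted p = 7.2e-06), whereas Mlh3 was at 1.502, 1.73 and 2.21 CPM against 8.60, 10.1 and 8.39 CPM (4.97-fold lower). Msh6 and Fan1 were lower (-0.40 and -0.61).

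Cytosolic ribosomal protein genes were higher nearly throughout, by small amounts. Of 79, 73 (92.4%) were higher and 0 lower, with a median log2 fold change of 0.57, yet 4 were at least 2-fold higher. Rpl8 was at 1885, 1629 and 1798 CPM against 707, 660 and 797 CPM (2.45-fold, adjusted p = 1.8e-07), and Rpl37 was 2.14-fold higher. Both are on chromosome 15, whose genes as a whole were higher, and off that chromosome 69 of 75 members were higher with a median of 0.56. Many of these genes have near-identical pseudogenes, so their counts are uncertain. Mitochondrial ribosomal proteins were higher at 57 of 77 and lower at 5, with a median of 0.36. Translation factors were higher at 28 of 46 and lower at 6. The 7 factors on chromosome 15 were all higher, with a median of 1.03, among them Eif3e at 546, 503 and 580 CPM against 212, 223 and 241 CPM, Eef1d and the poly(A)-binding protein Pabpc1. Elsewhere 21 of 39 were higher, with a median of 0.30.

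Targets of ATF4, the transcription factor of the integrated stress response, were lower at 19 of 28 and higher at 5, with a median of -0.33. Trib3 was at 13.2, 11.5 and 27.5 CPM against 58.5, 53 and 62.7 CPM (3.33-fold lower), Stc2 was 6.49-fold lower and Ddit3 (CHOP) 1.97-fold lower. Atf4 itself was 1.28-fold higher (log2 fold change 0.36, adjusted p = 2.3e-04), and it also lies on chromosome 15. Of 20 aminoacyl-tRNA synthetases 9 were higher (45%, against 36.0% of all genes) and 8 lower (40%, against 35.6%). Of 26 genes of ribosome rescue and the FMRP family 13 were higher and 4 lower, with opposite signs at the related GTPases Gtpbp1 (2.28-fold higher, on chromosome 15) and Gtpbp2 (2.05-fold lower), both of which act on stalled ribosomes. Fmr1 was higher by a log2 fold change of 0.70.

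Lysosomal genes were lower at 31 of 45 members (68.9%, against 35.6% of all genes) and higher at 6, with a median log2 fold change of -0.50. Ctsd, the main aspartic protease of the lysosome, was at 184, 211 and 208 CPM against 568, 520 and 546 CPM (2.71-fold lower; log2 fold change -1.44, SE 0.065, adjusted p = 6.6e-09). Neu1, a sialidase, was 3.41-fold lower, Npc1, a cholesterol exporter, 2.25-fold lower and Ctsf 12-fold lower. The cysteine proteases Ctsh and Ctsc were the exceptions upward, Ctsh at 16.9, 16.3 and 20.1 CPM against 0.564, 0.793 and 0.329 CPM (31.6-fold) and Ctsc with a log2 fold change of 4.80. Of 42 autophagy genes 10 were higher (23.8%, against 36.0% of all genes) and 13 lower (31%, against 35.6%), with a median of 0.01. Proteasome subunits were higher at 19 of 31 and lower at 1, none by 2-fold, and chaperones at 21 of 32 and lower at 5, with Hsph1 2.32-fold higher and Hspb1 5.78-fold lower.

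Cholesterol genes were higher at 17 of 29 and lower at 5, with a median of 0.52. Idi1, which isomerizes the isoprenoid unit, was at 50.7, 64.4 and 37.4 CPM against 11.4, 12.1 and 14.2 CPM (4.04-fold), Sqle was 3.04-fold and Hmgcs1 2.53-fold higher. Their regulator Srebf2, which like Sqle is on chromosome 15, was at 327, 348 and 241 CPM in HD-homo, 134, 125 and 128 CPM in HD-het and 404, 389 and 425 CPM in control libraries, with HD-het the lowest line. Off chromosome 15, 15 of 27 cholesterol genes were higher and 5 lower, with a median of 0.37. Of the efflux transporters Abcg1 was 9.56-fold higher and Abca1 2.12-fold lower. Nuclear genes of oxidative phosphorylation were higher at 30 of 75 (40%, against 36.0% of all genes) and lower at 16 (21.3%, against 35.6%), with a median of 0.09. Off chromosome 15, 25 of 70 were higher and 16 lower, with a median of 0.04. None of the mitochondrial genome's own 13 protein genes was found among the listed symbols, so they could not be tested. Glycolysis gave 10 higher (45.5%) and 4 lower (18.2%) of 22. Pdk1, which diverts pyruvate from the mitochondrion, was at 42.3, 43.6 and 48.7 CPM against 8.52, 7.50 and 10.5 CPM (5.07-fold). NRF2 targets gave 11 higher (47.8%) and 6 lower (26.1%) of 23, with Nqo1 4.96-fold higher. Imprinted genes were lower at 11 of 18 and higher at 5, among them Ndn (12.8-fold lower) and Grb10 (3.90-fold higher). Of 12 reference genes used to scale PCR, 6 were higher, 0 lower, and Gapdh and Actb were not called (0.09 and -0.11).

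Some genes were read in 1 HD line and not in the other. At least 10 CPM in one line with no more than 3 counts in any library of the other was found at 28 genes for HD-homo and 20 for HD-het, and 3 genes of each set had no count at all in the other line. Ppbp, a platelet chemokine precursor, was at 234, 236 and 513 CPM against at most 0.0915 CPM, at least 3699-fold higher, and Thbd, thrombomodulin, at 258, 292 and 369 CPM, at least 3456-fold higher. Selp, P-selectin, was at 37.1, 58.6 and 144 CPM, with its log2 fold change of 11.23 at 10.49 without HD-homo replicate 3 and at 12.09 without HD-het replicate 3. Ppbp, Thbd and Selp were also under 0.4 CPM in control libraries. Lxn, a carboxypeptidase inhibitor, differed, at 32.0, 33.6 and 40.3 CPM in HD-homo, 0 in HD-het and 55.1, 55.7 and 48.3 CPM in control libraries. Arsj did likewise, and HD-het was the only line without a read counted on either gene. In the opposite set, Lrrn1, a leucine-rich repeat protein of neurons, had no count in HD-homo or control libraries and 40.4, 44.2 and 47.7 CPM in HD-het, at least 524-fold above HD-homo. Megf10, an engulfment receptor, was at 0.0613, 0.0474 and 0.0597 CPM against 234, 253 and 230 CPM, at least 2842-fold lower. Pou3f3, a neural POU factor, and Tmem47 were at least 782-fold and 918-fold lower. Fitted values of such genes moved with single libraries, from 12.60 to 13.29 for Ppbp and from 12.50 to 13.19 for Thbd without HD-het replicate 2, and from -12.32 to -14.13 for Pou3f3 without HD-homo replicate 3. In CPM, the 5 largest increases included Il1rl1, the interleukin-33 receptor, at 2379, 2359 and 2687 CPM against 1136, 1206 and 996 CPM.

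The position of the genes, which was not used to choose anything above, parted chromosome 15 from the others. Of its 558 tested genes 387 (69.4%) were higher and 69 (12.4%) lower, with a median log2 fold change of 0.62, and every pairing of an HD-homo with an HD-het library gave a median between 0.59 and 0.63 for it. The median log2 ratio to control libraries was 0.03 for HD-homo and -0.54 for HD-het on this chromosome. The other chromosomes had medians from -0.43 (chromosome 18) to 0.32 (chromosome 13). Windows of 50 neighbouring tested genes were taken every 10 genes, so adjacent windows overlap and are not separate regions. Their median was at least 0.5 in 57 of 1247 windows, 38 of them on chromosome 15, and -0.5 or lower in 16. On chromosome 8 the window chr8:106200438-111625720 had a median of 0.68, with 84% of its genes higher. Chromosome 13 also held such windows, among them chr13:104109723-119654359 with a median of 0.63 and 74% of its genes higher. Off chromosome 15, 4435 of 12812 genes were higher and 4693 lower, with a median of -0.02. None of the interferon-stimulated genes, chemokines or MHC class I genes is on chromosome 15. Chromosome copy number was not measured, and its part in these values was not tested.

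**Figure D5:**
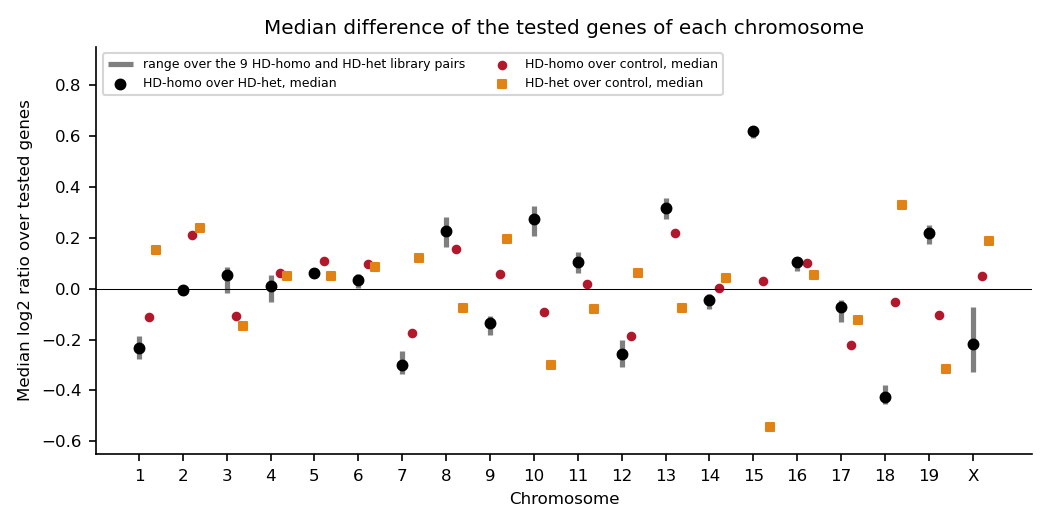
Median log2 ratio of the tested genes of each chromosome, HD-homo over HD-het, with bars from the lowest to the highest pairing of single libraries, and the medians of each HD line over control. Chromosome 15 stands at 0.62 for HD-homo over HD-het and at -0.54 for HD-het over control, and the other chromosomes lie between -0.43 and 0.32 for HD-homo over HD-het.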

How the data were processed

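RNA-seq was measured in 9 libraries, and the authors deposited raw counts per gene symbol without normalization. The submitters' processing notes name cutadapt, Bowtie 1.1.2, RSEM 1.3.0, DESeq2 and the builds GRCm38.p5 and mm10 without roles. If RSEM gave the counts, they are estimates rounded to whole numbers. Of 36410 genes listed, 26 carry dates where symbols should stand, and 2 symbols appear again. Sample columns were mapped by name.

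In R 4.3.3, edgeR 4.0.16 kept 13508 genes by filterByExpr (minimum count 10, 3 lines as groups). TMM factors were 0.984 to 1.03. A two-sided quasi-likelihood test was fitted to all 9 libraries with 1 mean per line, and p-values were adjusted by Benjamini-Hochberg over all tested genes, with a threshold of 0.05. Fold changes are ratios of mean CPM, and log2 fold changes come from the fit. Against a line with at most 3 counts in every library, the fold was computed against 3 counts per library and is a lower bound. Ratios to a line just above that limit, such as those of Trim25, C3, Wnt10a, Igfbp5 and Sema5b, rest on few counts and are uncertain in size. The script was tested on simulated data. Gene lists are described by counts and medians, with no set test. Their members, and the comparison itself, were chosen with earlier results of these data known.

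The genes named were the 10 largest increases and decreases with at least 10 CPM and no overlap, the 5 largest differences in CPM each way, the 2 extremes of each list each way (at least 5 CPM), Cgas, Ccl5, Cxcl10 and the genes of DNA sensing, and the 5 highest of those read in 1 line. From these a selection is printed. Some members count in their lists but are not reported here by name. Further list members were named after their values were seen, to show each list's roles and range. Chromosomes and promoters come from RefSeq GRCm38.p6, matched by symbol for 99.0% of tested genes (positions) and 78.0% (promoters). Ratios by chromosome used log2 of CPM plus 0.1. Alternatives were DESeq2 size factors, library totals, the Wald test of DESeq2 1.42.0, other filters, only the 6 HD libraries, a replicate block, each library left out in turn, a prior count of 2, and other thresholds. Leaving out chromosome 15 was added after seeing the data.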

Additional observations from a re-analysis of the deposited data

How the results depend on the processing

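The counts of genes that differed, and the counts of list members called, stayed within 1.5 times the reported value under the other normalizations, the DESeq2 test, no filter, the 6 HD libraries alone, the prior count and the leave-out of chromosome 15 (9210 genes differing, 4473 higher and 4737 lower). The exceptions follow. Requiring at least 10 counts in every library left 11739 genes, with 821 at least 2-fold higher and 1200 lower, and in the lists 21 interferon-stimulated genes higher of 29, 5 chemokines higher and 3 lower of 8, 7 integrin and matrix genes higher of 36 and 7 Hox genes higher of 7, because genes low in 1 line were no longer tested. Counting only differences of at least 2-fold gave 3285 genes, 1399 higher and 1886 lower. With 1 library left out in turn, between 8977 and 9592 genes differed and between 0 and 2 DNA replication genes were lower. The Y-linked gene Ddx3y, followed as a check and not called (log2 fold change 0.00), took a positive sign with library totals (0.029), no filter (0.0056), at least 10 counts (0.0012) and in some leave-outs, where it ran from -0.072 to 0.043, and it was not called in any of them. Of 203 genes followed, 197 kept their sign and their side of the threshold under all alternatives run. Cdh1, Mrpl33, Eif2s3y, Uty and Kdm5d crossed the threshold, and Ddx3y changed sign only. Library totals moved the median of all genes by 0.03.

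Same-numbered HD-homo and HD-het libraries correlated in their deviations at -0.0053, 0.133 and 0.115. Differently numbered ones correlated at -0.15 to 0.0645. These values are all small, and whether the numbers pair the libraries cannot be told from them. In a fit that blocked on replicate number, 9938 genes differed, 4991 higher and 4947 lower, of which 9614 were among the 9666 without it. Depth limits genes under 0.0710 to 0.0920 CPM.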
